A study of Danio rerio with 24 samples.

Results

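Vehicle embryos, kept in 0.1% DMSO from 0.75 hours post-fertilization (hpf), were compared between cleavage at 2 hpf and gastrulation at 6 hpf. They were chosen by treatment and collection time from the sample labels and make up 12 of the 24 arrays of the series, which hold 6 of its 12 pools. Each pool held 25 whole wildtype (5D strain) zebrafish embryos from its own replicate beaker, 3 pools were collected at each time, and the RNA of a pool was hybridized to 2 Zebrafish Gene 1.0 ST arrays. The other 6 pools were kept in 2 µM TDCIPP, an organophosphate flame retardant, over the same times. The question here was which maternal transcripts fell and which zygotic transcripts rose in the absence of the chemical.

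A zebrafish egg is loaded with messenger RNA and protein made in the ovary, and the first cleavages run on this maternal supply alone. The zygotic genome is then switched on at the mid-blastula stage, with the maternal transcription factors Pou5f3, Nanog and Sox19b opening the first enhancers. At the same time many maternal transcripts are shortened at their poly(A) tail and cleared, in part by a microRNA made from the newly active genome. By early gastrulation the embryo holds an outer enveloping layer, a yolk syncytial layer, a mesendoderm patterned by Nodal, Fgf and Wnt signals, and a dorsal organizer that opposes ventral Bmp signals. This whole sequence is called the maternal-to-zygotic transition.

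The deposited log2 signals are given per transcript cluster, a set of probes read together, and a difference of 1 is a 2-fold change. The 2 arrays of a pool were averaged and the pools compared with limma, with p-values adjusted by the Benjamini-Hochberg method over 61240 clusters and called at an adjusted p under 0.1. Differences are 6 hpf minus 2 hpf, and values after ± are SDs over 3 pools. A single gene symbol is annotated for 20856 of the clusters and no symbol for 39579. Named genes number 19298, each read from its brightest cluster on average. Pools of the same time correlated at 0.9912 to 0.9942 and pools of different times at 0.9074 to 0.9161, across clusters, which are not independent. Array medians were 4.337 to 4.461 at 2 hpf and 4.48 to 4.543 at 6 hpf. The arrays were normalized to a shared distribution, so a change is relative to the other clusters and says nothing of the total RNA of the embryo. In whole embryos, fewer cells of a type and less RNA per cell cannot be told apart.

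Close to 4 in 10 clusters changed between the stages. Of the 61240 clusters, 11490 (18.8%) were higher and 11665 (19%) lower at 6 hpf, and 4072 (6.65%) rose and 4038 (6.59%) fell at least 2-fold. Among the 19298 named genes the balance was different, with 2931 (15.2%) higher and 6138 (31.8%) lower, of which 1083 (5.61%) rose and 2349 (12.2%) fell at least 2-fold. Clusters without a symbol had the opposite balance, with 8061 (20.4%) higher and 4993 (12.6%) lower. The split of the calls depended on the zero point: after centring each array on its median, 8464 clusters were higher and 16680 lower, and the median change of all clusters moved from 0.01 to -0.11. Read against that shift, calls of small size have no firm direction, whereas the changes of 2-fold and more named here are many times larger than it.

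Rises went much further than falls. At least 4-fold changes were found for 506 genes that rose and 427 that fell, at least 8-fold changes for 269 and 39, and at least 16-fold changes for 141 and 1. The plot of signals at both times shows the risers fanning out from low 2 hpf signals and the fallers lying in a band below the diagonal. Of the 1083 genes that rose at least 2-fold, 563 had a mean signal below 5 at 2 hpf, and the median of the whole set went from 4.92 to 7.58. Of the 427 genes that fell at least 4-fold, 364 still had a mean signal of 5 or more at 6 hpf. A move from below 5 to 8 or above was made by 137 called genes, and the reverse move by 3. The signal scale differs between probe sets, so these classes are coarse and no gene's level is set against another's.

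**Figure D1:**
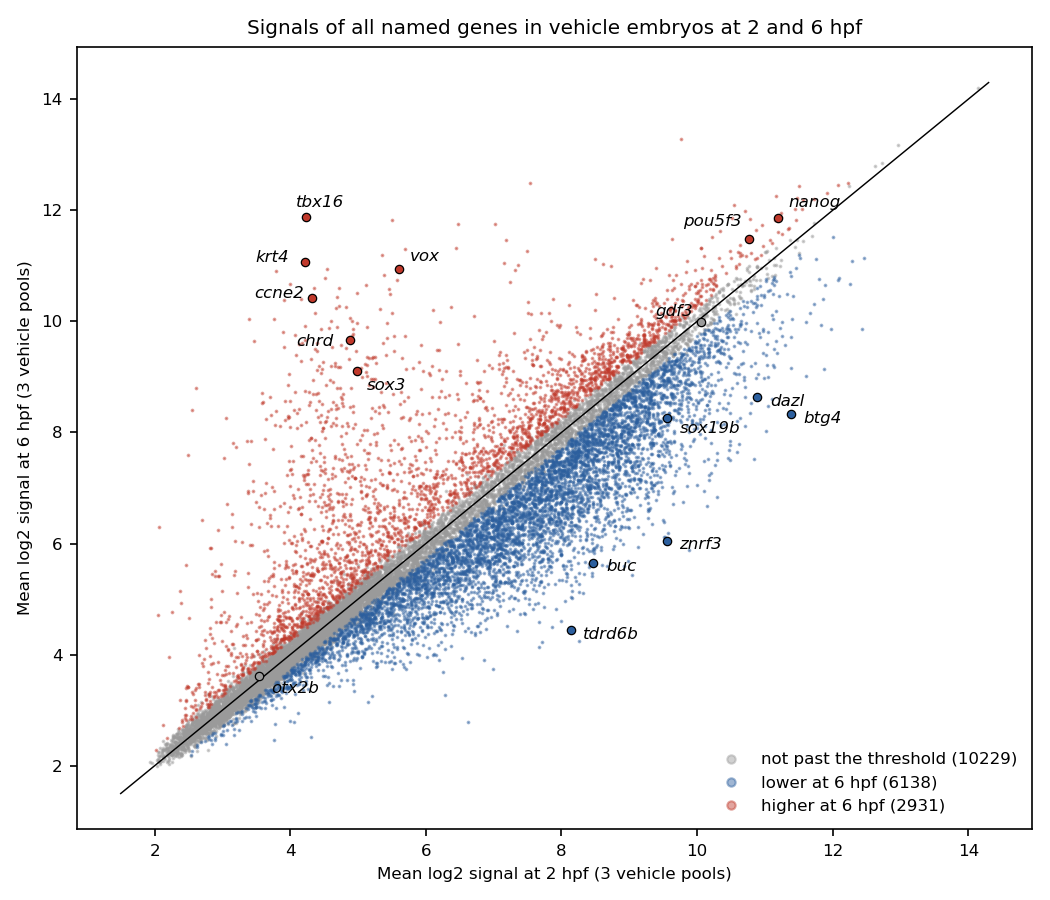
Mean log2 signal of each of 19298 named genes at 2 hpf (x axis) and 6 hpf (y axis), each the mean of 3 vehicle pools, with the line of equal signal. Red marks the 2931 genes called higher at 6 hpf, blue the 6138 called lower and grey the 10229 that did not pass. Labelled risers such as tbx16 and krt4 start near 4 and end above 11. At 6 hpf the labelled fallers btg4 and dazl read above 8, znrf3 6.05, buc 5.65 and tdrd6b 4.44, each on the scale of its own probes.

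**Figure D2:**
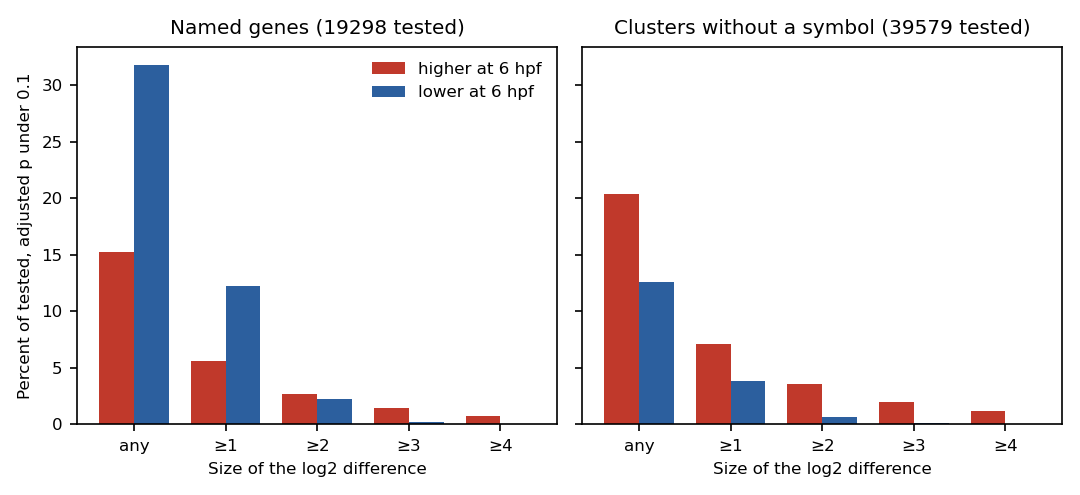
Percent of tested named genes (left, 19298) and of clusters without a symbol (right, 39579) called at an adjusted p under 0.1, by the smallest size of the log2 difference counted (x axis). Red bars are higher and blue bars lower at 6 hpf. Lower calls outnumber higher ones among named genes up to a difference of 1, and higher calls outnumber lower ones in both panels from a difference of 2.

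Transcripts of oocyte and egg genes fell as a group. Of 36 listed genes 32 were measured, and of these 25 were lower (31.8% of all genes were), 3 were higher and 4 did not pass, with a median log2 difference of -1.23 against -0.09 over all genes. At least 2-fold lower were 20 of the 32, against 12.2% of all genes. The member with the largest fall was btg4, which in mouse and zebrafish recruits the CCR4-NOT deadenylase to maternal transcripts. The 2 hpf pools of btg4 read 11.50, 11.23 and 11.41 and the 6 hpf pools 8.46, 8.14 and 8.39, a difference of -3.05 on the log2 scale (standard error 0.12, adjusted p = 9.2e-08). All 6 hpf pools of btg4 lay far below all 2 hpf pools, yet well within the upper range of the array.

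Falls of similar size were found for bmp15, an oocyte growth factor gene (-2.93), zar1l, a relative of the zygote arrest gene (-2.92), and slbp2, the oocyte form of the histone mRNA stem-loop binding protein (-2.86). The oogenesis-related gene org (-2.35), the importin gene kpna7 (-2.35), the claudin gene cldnd (-2.22), the survivin relative birc5b (-2.01) and mos, the kinase of egg meiotic arrest (-1.86), followed. Oocyte transcription factor genes fell less, with lhx8a at -1.69 and nobox at -1.22. For each of these genes the 3 pools of 6 hpf lay below those of 2 hpf, as they did for 34.8% of all genes.

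Other oocyte transcripts fell by less or did not pass. For zar1, needed for the oocyte-to-embryo transition, the 2 hpf pools read 7.52, 7.41 and 7.44 and the 6 hpf pools 7.23, 7.22 and 7.21, a difference of -0.24 (adjusted p = 0.0930). The pools of zar1 do not overlap, but the call was lost whichever of the 6 pools was left out, with differences of -0.26 to -0.20. The oocyte kinase gene wee2 read 8.97, 8.95 and 9.36 and then 8.42, 8.07 and 8.72, a difference of -0.69 (adjusted p = 0.0139) with no overlap between the stages. The chaperone gene npm2b, whose product remodels sperm chromatin, had a mean of 8.72 at both stages (adjusted p = 0.999), while its paralog npm2a fell by 1.84.

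Genes of the egg coat, the zona pellucida proteins, moved in different ways. The genes zp3c (-1.23) and zp3b (-1.02) fell, zp2.5 (-0.13), zp2.6 (-0.35) and zp3a.2 (0.10) did not, and zp2.2 was higher by 0.41 (adjusted p = 0.0297). These genes are close copies of each other, so their probes may share targets. The second, dimmer zp2.2 cluster was called lower (-0.56, adjusted p = 0.05995), opposite to the brighter one. For zp2.2 the mean over all its clusters changed by -0.08, which turns the direction. The other higher members were gtsf1, a piRNA pathway gene in mouse (0.37), and sycp3, a gene of the meiotic chromosome axis (0.35).

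Germ plasm and germ cell genes fell together with few exceptions. Of 18 measured, 15 were lower, 1 was higher and 2 did not pass, where 31.8% of all genes were lower and 15.2% higher. The median log2 difference was -1.37, against -0.09 over all genes. The 2 hpf pools of buc, whose product organizes the germ plasm, read 8.31, 8.48 and 8.62 and the 6 hpf pools 5.71, 5.30 and 5.96, a difference of -2.82 (standard error 0.17, adjusted p = 1.1e-06). The pools of buc were separated by more than 2 log2 units. For dazl, an RNA-binding protein gene of germ cells, they read 10.91, 10.83 and 10.93 and then 8.88, 8.31 and 8.71 (adjusted p = 2.0e-06).

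The tudor domain gene tdrd6a, whose product binds Bucky ball, fell by 2.94, and the germ plasm transcript ca15b by 2.59. The translational repressor gene nanos3 read 8.49, 8.27 and 8.59 at 2 hpf and 7.26, 6.81 and 7.04 at 6 hpf, a difference of -1.42 (adjusted p = 3.6e-05). Its groups stood apart, although the 6 hpf signals stayed above the array median. The second, dimmer nanos3 cluster changed by -0.25 and did not pass (adjusted p = 0.1635). Log2 differences of -1.63 for tdrd1 to -1.29 for tdrd5 were found, with asz1, piwil2, rgs14a, dnd1 and tdrd7a between them, of which dnd1 protects germ cell transcripts from microRNAs.

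The Vasa helicase gene ddx4, the classical germ cell marker, behaved differently. Its pools read 9.02, 9.16 and 9.51 at 2 hpf and 8.91, 8.97 and 9.44 at 6 hpf, a difference of -0.12 (standard error 0.17, adjusted p = 0.676). The groups of ddx4 overlap almost entirely. The Piwi gene piwil1 also did not pass (-0.32, adjusted p = 0.248), although its second, dimmer cluster was called lower (-0.40, adjusted p = 0.0508). The higher member was cxcr4b, the chemokine receptor that guides migrating germ cells, which rose by 3.75 from a signal near 4.

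**Figure D3:**
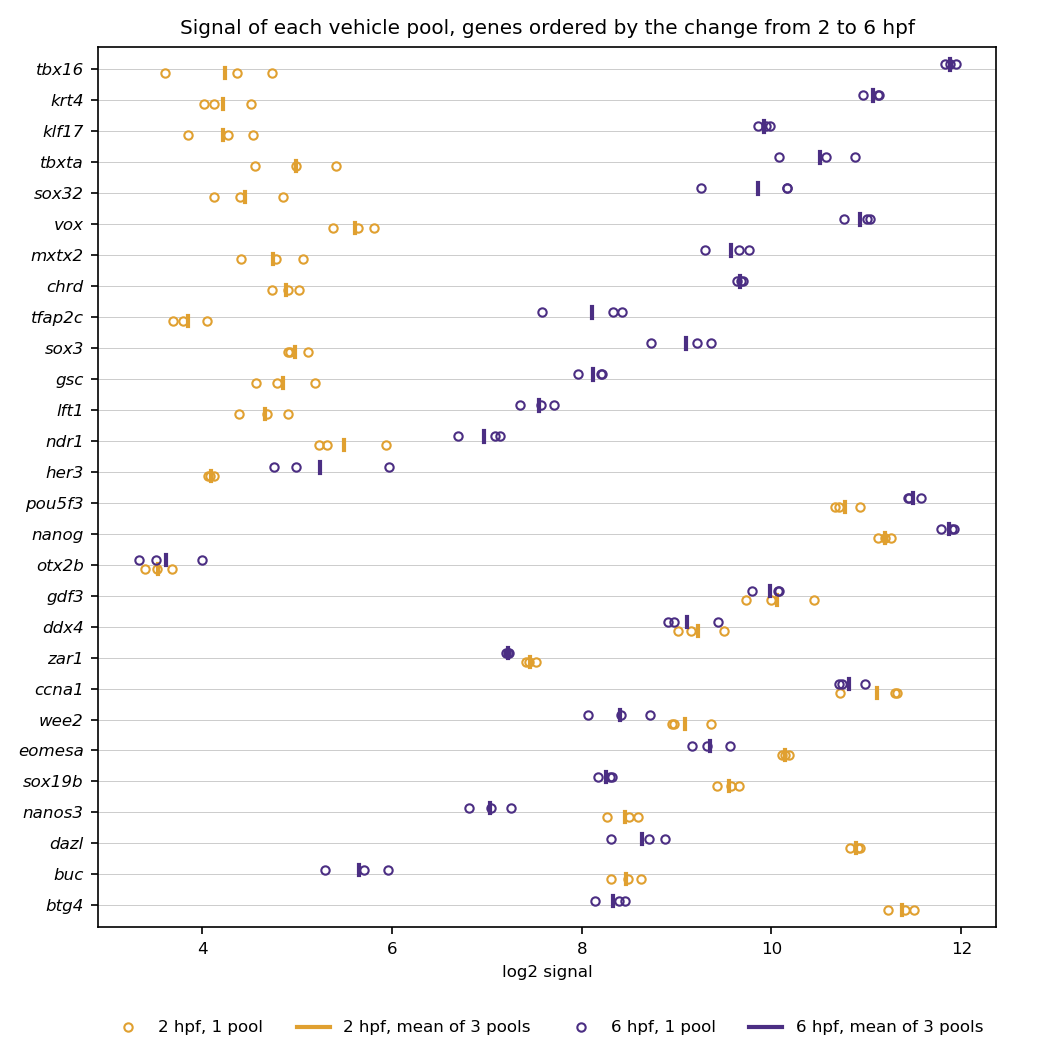
Log2 signal (x axis) of each vehicle pool for 28 genes (y axis), ordered by the change from 2 to 6 hpf. Open circles are pools, 3 per time, and vertical bars their means, in orange at 2 hpf and purple at 6 hpf. For otx2b, gdf3, ddx4 and ccna1 the pools of the times overlap, and for the genes at the top they lie more than 4 log2 units apart.

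Maternal factors of the body axis and of signalling, whose products act in the blastula, did not move as a group. Of 24 measured, 8 were higher, 10 were lower and 6 did not pass, where 15.2% of all genes were higher and 31.8% lower. The median of -0.01 was positive without 2 hpf replicate 1 (0.023) or 3 (0.027) and from the second array of each pool alone (0.054). The TGF-beta ligand gene gdf3 (Vg1), the maternal partner of Nodal, read 9.99, 9.73 and 10.45 at 2 hpf and 9.80, 10.07 and 10.08 at 6 hpf (difference -0.07, adjusted p = 0.811). These pools are intermixed. The only member that fell at least 2-fold was mid1ip1l (-2.06), a maternal cytoskeletal factor, and the only one that rose so far was tdgf1 (1.65), the Nodal co-receptor One-eyed pinhead. Receptor genes rose by less, with acvr1l at 0.64 and lrp6 at 1.00, while smad2 fell by 0.72 and sybu, of the dorsal determinant pathway, by 0.80.

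The activators of the zygotic genome split by family member. Of 14 measured genes, 8 were higher, 4 were lower and 2 did not pass, where 15.2% of all genes were higher and 31.8% lower. The pools of nanog read 11.26, 11.20 and 11.12 at 2 hpf and 11.90, 11.79 and 11.92 at 6 hpf, a rise of 0.68 (adjusted p = 0.000520). Those of pou5f3 read 10.93, 10.67 and 10.71 and then 11.58, 11.44 and 11.45, a rise of 0.72 (adjusted p = 0.000675). Both genes were thus high at each stage, and higher at the later one without overlap.

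The SoxB1 genes differed in direction. The maternal member sox19b read 9.66, 9.43 and 9.57 at 2 hpf and 8.29, 8.17 and 8.31 at 6 hpf, a difference of -1.30 (adjusted p = 1.0e-05). The zygotic member sox3 read 4.93, 5.12 and 4.90 and then 9.36, 9.21 and 8.73, a rise of 4.12 (adjusted p = 8.0e-08), and sox19a rose by 5.45. In each of the 3 genes the stages were clearly separated, the maternal one downwards and the others upwards. The maternal T-box gene eomesa read 10.19, 10.11 and 10.14 and then 9.32, 9.16 and 9.56, a difference of -0.80 (adjusted p = 0.000633). Among cofactors, the histone acetyltransferase gene ep300a (-0.64) and tbp (-0.51), of the TATA-binding protein, fell, and the bromodomain gene brd3a (0.53), the insulator protein gene ctcf (0.64) and the Nodal effector foxh1 (0.61) rose.

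Pairs of related genes, in which the first is or was thought to be the more maternal form, were compared side by side. In 14 measured pairs, opposite calls were found for sox19b and sox19a, for the claudins cldnd (-2.22) and cldne (4.62), for the nucleophosmin genes npm2a (-1.84) and npm1a (0.86), and for the cap-binding genes eif4e1b (-0.40) and eif4ea (1.95). In further pairs the first gene fell and the second did not pass: slbp2 with slbp (0.09, adjusted p = 0.561), and the poly(A)-binding pabpc1l (-1.25) with pabpc1a (0.12, adjusted p = 0.407). In others the first gene did not pass and the second rose: npm2b (-0.0002) with npm1a, gdf3 (-0.07) with ndr2 (3.75), and igf2bp3 (0.05) with igf2bp1 (1.68). The importin genes kpna7 and kpna2 (-1.62) both fell, and the chemokine receptors cxcr4b and cxcr4a (4.88) both rose. Both zar1l (-2.92) and zar1 (-0.24, adjusted p = 0.0930) were called lower. For the Myc genes the order was the other way round, with mych at 3.90 and myca at -0.49. The cyclins ccna1 and ccna2 both failed the test, ccna1 with pools of 11.30, 10.72 and 11.32 at 2 hpf against 10.74, 10.71 and 10.99 at 6 hpf (adjusted p = 0.237).

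**Figure D4:**
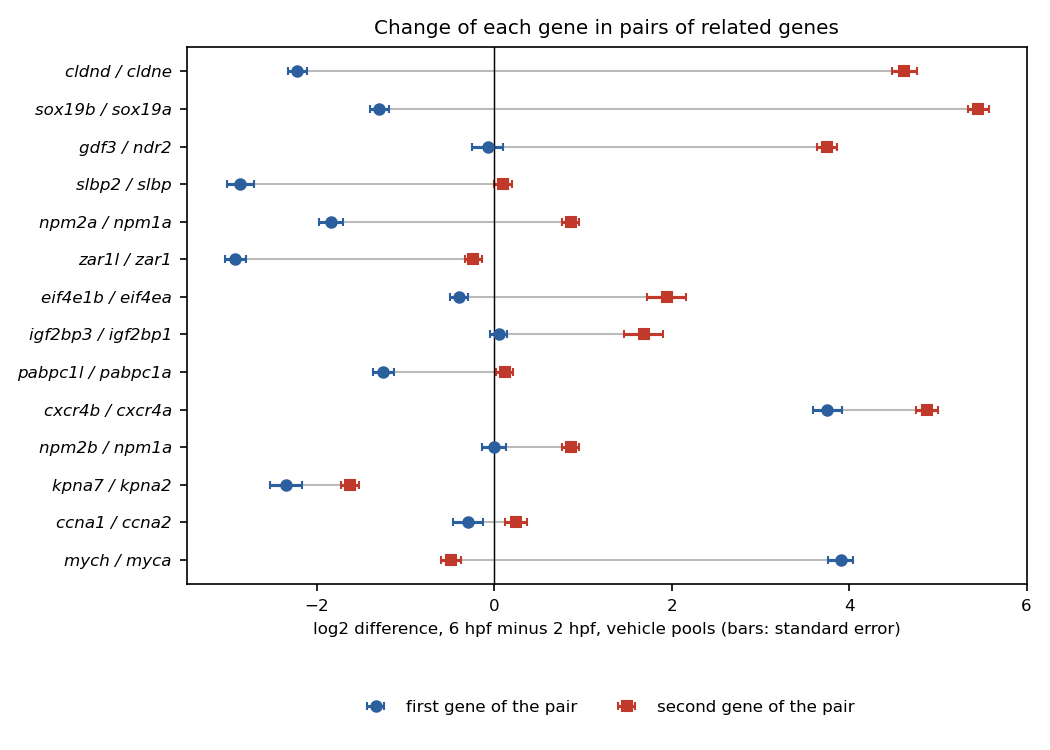
Log2 difference, 6 hpf minus 2 hpf, of both genes in 14 pairs of related genes (y axis), with standard errors from limma. Blue circles are the first and red squares the second gene named. The widest gaps are those of cldnd with cldne and sox19b with sox19a, and the mych and myca pair is turned round.

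Of 44 measured genes of the machinery that stores and clears messenger RNA, 10 were higher, 20 were lower and 14 did not pass, where 15.2% of all genes were higher and 31.8% lower. Members moved in both directions. Besides btg4 and zar1l, falls were found for drosha (-2.39), dgcr8 (-0.53) and dicer1 (-1.13), which make microRNAs, and for the Argonaute gene ago1 (-1.42). Genes of RNA-binding proteins that act on AU-rich or polyadenylation elements differed, with zfp36l2 at -2.20, zfp36l1a at -1.18 and cpeb1b at -1.25 but khsrp at 0.51 and elavl1a higher, from a mean of 9.65 to one of 10.75. In the CCR4-NOT complex, the catalytic subunit gene cnot7 fell by 1.81, the scaffold gene cnot1 rose by 0.50, and cnot2 (-0.14), cnot3a (0.07) and cnot8 (0.15) did not pass.

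Higher members included igf2bp1 (1.68), ybx1 (1.15) and ythdf2 (0.69). Ybx1 restrains translation of maternal transcripts and Ythdf2, a reader of methylated adenosine, helps to clear them in zebrafish. The transcript of igf2bp3, a maternal stabilizer, read 10.10 ± 0.03 at 2 hpf and 10.15 ± 0.06 at 6 hpf (adjusted p = 0.770).

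Of 41 measured cell cycle genes, 14 were higher, 16 were lower and 11 did not pass, where 15.2% of all genes were higher and 31.8% lower. At least 2-fold, 9 rose and 8 fell, where 5.61% of all genes rose and 12.2% fell so far. The 9 that rose at least 2-fold act in G1 or as brakes on growth: ccne2 (6.10) and ccnd1 (5.84) encode cyclins of the G1 phase, cdkn1a (2.66) and cdkn1ca (2.54) inhibitors of cyclin-dependent kinases, and btg1 (3.46), gadd45ba (3.34), gadd45bb (3.29), ccng2 (1.76) and gadd45aa (1.09) antiproliferative or stress proteins. Signals of ccne2 were 4.33 ± 0.24 at 2 hpf and 10.42 ± 0.06 at 6 hpf (n = 3 each). Not all brake genes rose: btg2 was called lower (-0.25, adjusted p = 0.0988), and cdkn1bb (-0.11) and ccng1 (0.07) did not pass. A second, dimmer cdkn1bb cluster was higher by 0.63 (adjusted p = 0.0108). Other genes of G1 cyclins and kinases changed by less and in both directions. The cyclin gene ccne1 rose by 0.42 and ccnd3 fell by 0.64. Among cyclin-dependent kinases, cdk6 rose by 0.67 and cdk4 by 0.28, while cdk2 fell by 0.44 and cdk1 by 1.37.

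The 8 that fell at least 2-fold, which besides ccnd2a act mainly in mitosis, meiosis or its checkpoints, were the inhibitory kinase gene pkmyt1 (-2.57), mos, chek1 (-1.70), cdk1, aurkb (-1.34), plk1 (-1.23), aurka (-1.03) and the D-type cyclin gene ccnd2a (-1.11). The mitotic cyclin genes ccnb1 (-0.31, adjusted p = 0.131) and ccnb3 (-0.18) did not pass, and ccnb2 fell by 0.69. The phosphatase gene cdc25b, which drives entry to mitosis, did not pass either (0.25, adjusted p = 0.108).

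In the list of early chromatin, 6 of 21 measured genes were higher, 4 were lower and 11 did not pass, with a median of 0.01, where 15.2% of all genes were higher and 31.8% lower. The maintenance DNA methyltransferase gene dnmt1 fell from 10.99 ± 0.06 to 8.98 ± 0.03 (n = 3 each, log2 difference -2.02, adjusted p = 2.6e-07), while the de novo methyltransferase genes differed among themselves. Of these dnmt3ba (1.56) and dnmt3bb.2 (0.81) rose, dnmt3aa (-0.05), dnmt3ab (-0.18) and dnmt3bb.1 (-0.15) did not pass, and dnmt3bb.3, which was not on the list and was added with its value in view, fell by 1.66. Polycomb genes diverged, with suz12b at -1.50, ezh2 at 0.37 and eed at 0.05, the last not past the threshold. The histone variant genes h2ax (1.77) and h2az2b (1.33) rose.

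On the zygotic side, genes of the enveloping layer, the flat outer epithelium of the blastula, had the largest list median, 4.12. Of 22 measured, 18 were higher against 15.2% of all genes (and 18% of all genes were higher without overlap of pools), 1 was lower and 3 did not pass. The pools of krt4, a keratin of this layer, read 4.12, 4.51 and 4.02 at 2 hpf and 11.13, 11.12 and 10.96 at 6 hpf, a rise of 6.85 (standard error 0.14, adjusted p = 2.6e-09). Those of klf17, its Krüppel-like regulator, read 3.85, 4.53 and 4.27 and then 9.98, 9.86 and 9.94, a rise of 5.71 (adjusted p = 1.1e-08). For both genes all 6 hpf pools lay far above all 2 hpf pools.

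Keratin genes krt18a.1 (6.40), krt8 (5.75) and krt5 (5.10) rose along with the grainyhead factor genes grhl3 (6.25) and grhl1 (4.33) and the cell envelope gene evpla (5.44). Tight junction claudins cldne and cldnb (4.14) did so too. The adhesion genes cdh1 (0.55) and epcam (-0.18, not past the threshold), which had mean signals of 10.63 and 6.78 at 2 hpf, moved little. Other keratin genes, krt91 (0.05) and krt18b (-0.07), stayed near 4, though a second krt91 cluster was higher by 0.57 (adjusted p = 0.0263). The gene krt94 was lower by 0.47 (adjusted p = 0.0618). Its call was lost without 2 hpf replicate 2 (-0.40) or 3 (-0.44) or 6 hpf replicate 2 (-0.50) or 3 (-0.30).

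Nodal and endoderm genes rose in 13 of 15 cases, where 15.2% of all genes were higher, and had a median of 2.88. Of the Nodal ligands, ndr2 (cyclops) rose by 3.75 and ndr1 (squint) by 1.48. The pools of ndr1 read 5.32, 5.94 and 5.23 at 2 hpf and 6.70, 7.08 and 7.13 at 6 hpf (adjusted p = 0.000260), with no overlap. For lft1, a Nodal target that encodes the antagonist Lefty, they read 4.69, 4.91 and 4.39 and then 7.57, 7.71 and 7.36, a rise of 2.88 (adjusted p = 5.2e-07), and lft2 rose by 2.88 as well.

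The endoderm selector gene sox32 read 4.40, 4.85 and 4.12 at 2 hpf and 10.16, 10.16 and 9.26 at 6 hpf, a rise of 5.40 (adjusted p = 2.8e-07). Its 6 hpf replicate 3 was lower than the other pools of that time and still far above 2 hpf. Its target sox17, a later endoderm gene, rose by 0.89, and gata5 (4.03), mixl1 (2.61) and foxa3 (6.18) rose further. The genes foxa1 (-0.05) and prdm1a (0.28) did not pass.

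Mesoderm genes were higher in 31 of 43 cases and lower in none, where 15.2% of all genes were higher and 31.8% lower. Their median was 1.15. The T-box gene tbx16 (spadetail), of the paraxial mesoderm, had the largest rise of any named gene. Its pools read 4.37, 4.74 and 3.61 at 2 hpf and 11.94, 11.88 and 11.83 at 6 hpf, a difference of 7.64 (standard error 0.24, adjusted p = 1.8e-08). The no tail gene tbxta, of the germ ring and notochord, read 4.99, 5.41 and 4.55 and then 10.57, 10.88 and 10.08, a rise of 5.53 (adjusted p = 1.6e-07). For both genes the stages were at least 4 log2 units apart in every pool.

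Among signals and their targets, aplnra (5.86), wnt11f2 (4.60), dusp6 (4.35), fgf3 (3.70), fgf17 (3.43), fgf8a (2.21) and the sprouty genes spry1 (2.49) and spry4 (2.08) rose. Of these, dusp6 and the sprouty genes are feedback inhibitors of Fgf signalling. Genes that act later in the mesoderm were at or near the bottom of the scale: myf5 (-0.07) and myod1 (-0.04), of muscle, meox1 (-0.06), of the somites, and tbx6 (-0.18) did not pass. The presomitic gene msgn1 was higher by 0.58.

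Among dorsal organizer genes, 15 of 20 were higher, 1 was lower and 4 did not pass, with a median of 1.34. Of all genes, 15.2% were higher and 31.8% lower. The pools of the homeobox gene gsc read 5.19, 4.78 and 4.57 at 2 hpf and 8.22, 8.20 and 7.96 at 6 hpf, a rise of 3.28 (adjusted p = 3.4e-07). Those of chrd, whose product chordin binds Bmp ligands, read 4.74, 5.02 and 4.90 and then 9.64, 9.70 and 9.67 (adjusted p = 3.5e-09). The 3 later pools of chrd differed by less than 0.1. The notochord gene noto (5.92), the forkhead gene foxd5 (4.86) and admp (4.11), an organizer Bmp ligand, also rose, whereas dharma, which acts first in the organizer, was higher by 1.00 only.

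Genes of the Bmp pathway and the ventral side had a median of 2.58, with 17 of 26 higher, 4 lower and 5 not passing. Over all genes, 15.2% were higher and 31.8% lower. The ligand genes bmp2b (4.56), bmp7a (3.90) and bmp4 (2.81) rose. The ventral homeobox gene vox read 5.64, 5.81 and 5.38 at 2 hpf and 11.04, 11.01 and 10.76 at 6 hpf (adjusted p = 6.6e-09), and the ectoderm gene tfap2c read 4.05, 3.70 and 3.80 and then 8.43, 8.33 and 7.58, a rise of 4.26 (adjusted p = 3.5e-07). Replicate 3 was the lowest 6 hpf pool of each, without overlap with 2 hpf. Targets of the pathway were not uniform, with id1 at 5.62 and bambia at 4.65 but id2a at -1.64 and bambib at -1.22. Also lower were tp63 (-0.69), of the later epidermis, and smad6a (-0.44), whose call was lost without 2 hpf replicate 2 (-0.27) or 6 hpf replicate 1 (-0.48) or 3 (-0.31).

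Of 15 measured yolk syncytial layer genes, 8 were higher and 7 did not pass, where 15.2% of all genes were higher. The homeobox gene mxtx2, which directs the layer, read 4.41, 5.06 and 4.78 at 2 hpf and 9.30, 9.65 and 9.76 at 6 hpf, a rise of 4.82 (adjusted p = 6.0e-08), and mxtx1 rose by 5.02 and hnf4a by 3.60. Of genes that act in lipid transport, apoeb rose by 5.17, mttp by 4.74 and apobb.1 by 0.44. In contrast apoa1a (0.09), apoa2 (-0.05), apoa4b.1 (-0.03), ttr (0.16) and rbp4 (-0.07), of plasma proteins, stayed at signals of 2.2 to 5.2 in all 6 pools.

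Neural plate genes rose in part: 18 of 33 were higher, 3 were lower and 12 did not pass. Their median was 0.31, and over all genes 15.2% were higher and 31.8% lower. Those that rose included sox11a (5.43), zic2b (5.30), irx7 (4.26), her5 (4.25), hesx1 (1.61) and gbx1 (1.90, with a second cluster at -0.09 that did not pass). In contrast otx2b, of the forebrain and midbrain, did not pass, and its pools read 3.40, 3.68 and 3.52 at 2 hpf and 3.51, 4.00 and 3.34 at 6 hpf (adjusted p = 0.774). The stages of otx2b overlap at a low signal. In between was her3, a hairy-related repressor gene of the neural plate, with 4.09, 4.07 and 4.12 and then 4.75, 5.96 and 4.99 (adjusted p = 0.00748). All her3 pools of 6 hpf lay above those of 2 hpf, and replicate 2 stood about 1 log2 unit above the others.

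**Figure D5:**
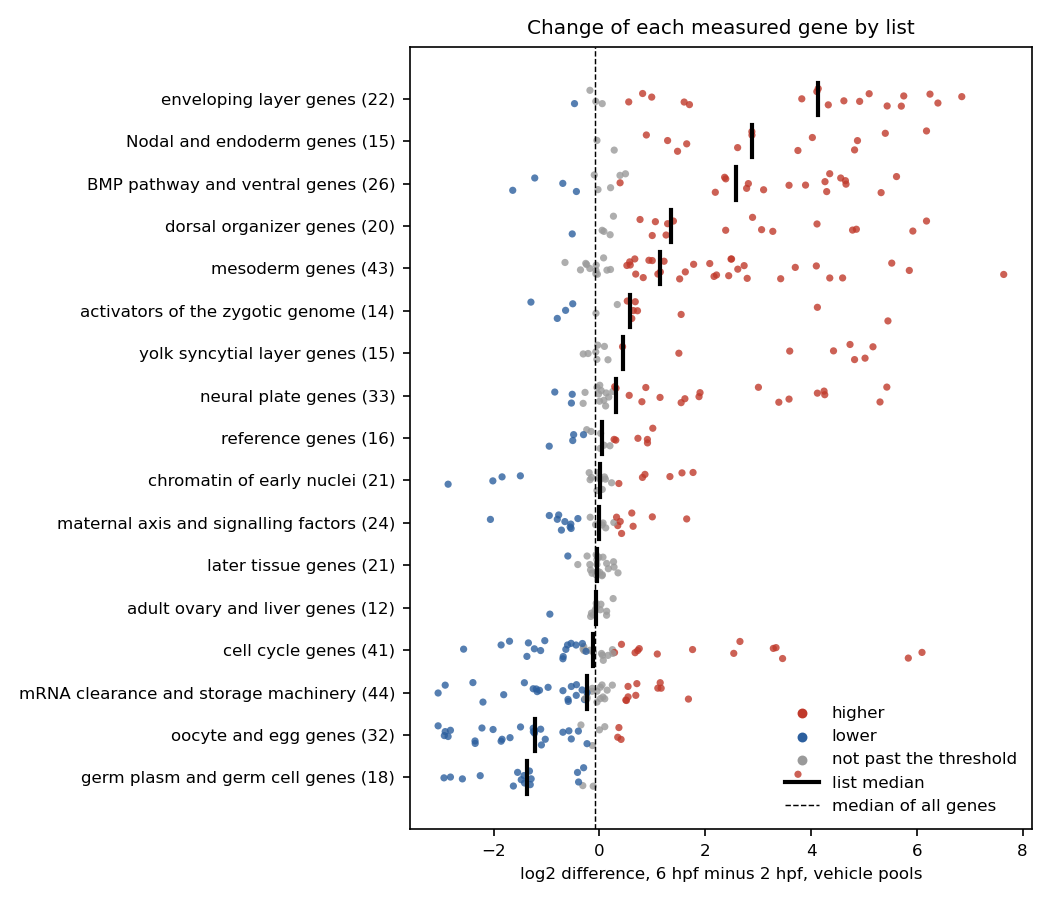
Log2 difference, 6 hpf minus 2 hpf (x axis), of each measured gene in 17 lists (y axis, number measured in parentheses), with 1 point per gene. Red points were called higher, blue lower and grey did not pass, thick bars are list medians, and the dashed line is the median of all genes, -0.09. The medians run from -1.37 for germ plasm genes to 4.12 for enveloping layer genes.

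As a check on the stage and the tissue, genes of later tissues were listed with genes of the adult ovary and liver. Of 21 later tissue genes (of blood, muscle, heart, neurons and gut) none was higher, 1 was lower and 20 did not pass. Of all genes, 15.2% were higher and 31.8% lower. Among the 21 later tissue genes, 18 had a mean signal below 5 at 2 hpf and 19 at 6 hpf. Their summed linear signal was 429 to 488 over the 2 hpf pools and 418 to 465 over the 6 hpf pools. Of 12 ovary and liver genes 1 was lower, the steroid enzyme gene cyp17a1 (-0.94), whose signal was 8.53 ± 0.04 at 2 hpf, and the yolk protein genes vtg2 and vtg3 read below 4 in every pool. Of the 12 ovary and liver genes, 9 had a mean signal below 5 at 2 hpf and 9 at 6 hpf. Their summed linear signal was 882.7 to 923.8 over the 2 hpf pools and 756.5 to 844.9 over the 6 hpf pools. Reference genes often used for normalization were not constant, with gapdh lower by 0.95 and actb1 higher by 1.01, and a list median of 0.05 in 16 genes.

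The 12 named genes with the largest rises went up 76.0-fold to 200-fold on the signal scale. Their mean signals at 2 hpf were 3.40 to 5.50, and where such a signal is background the fold understates the change. Beside tbx16, krt4, krt18a.1 and grhl3 they were plekhn1, stm (starmaker, an otolith matrix gene), asb11, which takes part in Notch signalling in zebrafish, polr3gla, of an RNA polymerase III subunit, and the uncharacterized si:dkey-11o15.10, sb:cb81, si:ch211-125o16.4 and LOC561361. For plekhn1 the signal was 3.91 ± 0.08 at 2 hpf and 10.38 ± 0.12 at 6 hpf (n = 3 each, adjusted p = 1.9e-09). For LOC561361 the 2 hpf pools were spread from 3.56 to 5.11.

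The 12 with the largest falls went down 10.6-fold to 16.2-fold. They were trim35-29, LOC797855, zgc:92591, tdrd6b, alg13, mthfd2l, znrf3, zgc:152863, pld1a, zgc:153345, zfpm2b and fhdc2. Of these, tdrd6b is a second tudor gene of the germ line, whose signal went from 8.14 ± 0.20 to 4.44 ± 0.41 (n = 3 each, log2 difference -3.70, adjusted p = 5.2e-07). The gene znrf3 encodes a ubiquitin ligase that removes Wnt receptors, mthfd2l a mitochondrial folate enzyme, and pld1a a phospholipase, and their differences were -3.50, -3.52 and -3.48. The trim35-29 gene belongs to a large family of close copies, so its probes may share targets.

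The cluster with the largest rise of all carries no symbol: cluster 13096993 went from 2.69 ± 0.30 to 13.14 ± 0.07 (n = 3 each), a difference of 10.45, and cluster 13040428 holds identical values. Clusters 13047185 and 13098598, again identical to each other, rose by 9.52. The largest fall of a cluster without a symbol was 4.14, in cluster 13208124. The annotation used here names no gene for them.

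Within 6 hpf, the 3 vehicle pools did not stand equally far from the 2 hpf pools. Of the 1083 genes that rose at least 2-fold, replicate 2 was the highest pool for 581, replicate 1 for 335 and replicate 3 for 167, and replicate 3 was the lowest for 660. Of the 2349 that fell at least 2-fold, replicate 2 was the lowest pool for 1217 and replicate 3 the highest for 1133. Over all 19298 genes, replicates 1, 2 and 3 were the highest pool for 6433, 6257 and 6608. They were the lowest for 5455, 7001 and 6842, so replicate 1 was less often the lowest. The median rise was 2.02 in replicate 2, 1.91 in replicate 1 and 1.76 in replicate 3. These counts describe sets chosen on the same pools, and no test was made of them. Across all clusters, vehicle arrays of the same pool correlated at 0.9866 to 0.9916. Arrays of different pools of a time correlated at 0.9846 to 0.9912, so these ranges largely overlap.

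The same order was found in most lists of zygotic genes. Of the 23 mesoderm genes that rose at least 2-fold, replicate 2 was the highest for 15 and replicate 3 the lowest for 17. The list median of the mesoderm genes was 0.87 without replicate 2 and 1.48 without replicate 3. Pools were far apart for dlc, a Delta ligand gene, with 8.31, 9.07 and 6.20 at 6 hpf against 4.30, 4.51 and 4.02 at 2 hpf, and for sp5l, a Wnt target, with 6.40, 8.26 and 6.01 against 4.54, 4.71 and 4.92. For the ventral gene eve1 they were 8.09, 8.46 and 6.82, and for snai1b, a regulator of cell migration, replicate 2 was instead the lowest, at 6.57 against 7.81 and 7.75.

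The change from 2 to 6 hpf was also set beside that in TDCIPP pools. Of the clusters called higher in vehicle embryos, 9370 (81.55%) were called higher with TDCIPP, where 20.6% of all clusters were, and of those called lower 9954 (85.33%) were called lower, where 19.5% of all clusters were, while 17 had opposite calls. The test of the difference between the changes called 0 clusters (0.0%, limma interaction over 12 pools), with adjusted p-values of 0.140 and above and 2645 clusters at an unadjusted p under 0.05. A random block for the pool gave 8 clusters past the threshold. Without 6 hpf DMSO replicate 3, 2 clusters passed, and without 6 hpf TDCIPP replicate 2, 3 did.

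The named genes nearest to the threshold on the side of a larger change with TDCIPP were arl3l1 (a difference of 1.16 between the changes), ppp1r14ab (1.05) and krt92 (1.02), each with an adjusted p of 0.291. On the other side were the type I Bmp receptor gene bmpr1aa (-0.68, adjusted p = 0.375), tfap2c (-1.41, adjusted p = 0.575) and si:dkey-1b17.1 (-1.17, adjusted p = 0.891). The list medians in TDCIPP pools were 4.50 for enveloping layer genes, 1.11 for mesoderm genes, 2.23 for Bmp and ventral genes, -1.11 for oocyte genes and -1.41 for germ plasm genes. A change called in one treatment and not in the other is not shown to differ between them.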

How the data were processed

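Total RNA of each pool was amplified with random primers, labelled with biotin and hybridized to duplicate Zebrafish Gene 1.0 ST arrays, designed on the danRer6/Zv9 build. With Expression Console, the authors ran Robust Multichip Analysis (RMA) on the scans, that is background correction, quantile normalization and a summary of the probes of each cluster, and deposited log2 signals for 75212 rows. The versions of these tools are not given in the sources used here. Quantile normalization makes every change relative to the other clusters.

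Rows with IDs below the first gene entry (13972, none with a symbol) were left out, leaving 61240 clusters. Of the clusters with 1 symbol, 20373 were matched by gene ID to a current gene table. Clusters with several symbols (805) were tested and not named. A gene with several clusters (1377) was read from the one with the highest mean, and 24 genes had clusters called in opposite directions. Identical values were shared by 1644 rows. The 2 arrays of a pool were averaged. The 6 vehicle pools were fitted with limma 3.58.1 (R 4.3.3), by lmFit and then eBayes, with two-sided p-values adjusted over all clusters (Benjamini-Hochberg) and called under 0.1. The number of pools and arrays limits the precision, and with 3 pools a side an exact permutation p is at least 0.1. Simulations were run 5 times with the moderated spread that limma estimated for these pools, each with 200 of 61240 clusters changed. Changes of 0.5, 1, 1.5 and 2 were called in 28%, 98.4%, 100% and 100% of cases, and 128 calls in all were false. Far more clusters were called in the data, 11490 higher and 11665 lower, so the adjusted threshold was stricter in the simulations. Their call rates are therefore not those of this comparison. Simulated noise was independent between clusters.

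Named genes are 30 chosen key genes (28 measured), members of 17 lists, 17 gene pairs (14 measured), the 12 named genes per direction with the largest change among those called without overlap between the stages, and the 3 genes per direction nearest to a called difference from TDCIPP. These lists and rules, and the comparison itself, were chosen with earlier results of these data known, and list members follow textbook roles. Lists are described by counts and medians and were not tested as sets. Some genes are on several lists. Genes singled out for spread between pools, and clusters without a symbol, were picked with their values in view. The results were recomputed with a replicate block, with a random block for pools, with either array alone, the methods' analysis of variance on arrays, all 12 pools in 1 fit, eBayes with trend and robust options, renewed quantile normalization, centring on the median or on reference genes, a minimum mean signal of 5, clusters with 1 symbol only, a threshold of 0.05 or a 2-fold minimum, the mean over the clusters of a gene, and leaving out each pool. Deviations from the group means of same-numbered pools correlated at -0.01, 0.07 and 0.10. Differently numbered pools were not correlated, so whether the replicate numbers pair the pools was not tested. No sequences are printed, since none were used here. Figures were drawn with matplotlib 3.10.9.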

Additional observations from a re-analysis of the deposited data

Results flagged for a closer look

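The receptor gene bmpr1aa is listed because every 6 hpf pool lay above every 2 hpf pool in vehicle embryos and below in TDCIPP embryos. Its signal rose by 0.32 on the log2 scale in vehicle pools (adjusted p = 0.0287), from 6.67 to 6.99, and changed by -0.36 in TDCIPP pools (adjusted p = 0.0132), from 6.83 to 6.47. The difference between these changes was -0.68 and did not pass the test over all clusters (limma interaction, adjusted p = 0.375). The other cluster of bmpr1aa changed by 0.09 in vehicle pools and was not called (adjusted p = 0.686).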

How the results depend on the processing

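With a replicate block, which the main fit left out, 11393 clusters were higher and 11758 lower. The counts of higher and lower clusters were 3397 and 6750 among clusters with 1 symbol, 4072 and 4038 with a 2-fold minimum, 8464 and 16680 after centring on the median and 10175 and 14264 after renewed quantile normalization, and 7234 were higher with a mean signal of at least 5. Leaving out 1 pool gave 9822 to 10953 higher and 10492 to 11261 lower clusters. Centring on the median gave list medians of -1.50 for germ plasm, -0.14 for maternal axis, 0.44 for genome activator, -0.36 for mRNA clearance and -0.24 for cell cycle genes, and renewed quantile normalization gave -0.16 for maternal axis, 0.35 for activator and -0.0365 for cell cycle genes. Array 2 alone gave 0.0537 for maternal axis and array 1 alone -0.0615 for cell cycle genes. Leaving out 1 pool gave -0.0871 to 0.0268 for maternal axis, -0.27 to -0.16 for mRNA clearance, -0.183 to -0.0776 for cell cycle and 0.87 to 1.48 for mesoderm genes. A minimum mean signal of 5, taken over both collection times, drops members that were low at both. Members low at the earlier time stay only if their later signal was high. With it the medians were 2.21 for mesoderm, 3.06 for dorsal organizer and 3.10 for Bmp and ventral genes. They were 4.77 for enveloping layer, 4.74 for yolk syncytial layer and 1.89 for neural plate genes. Because the filter itself favours risers among low-starting genes, these higher medians are no check on the main ones. The test of the difference from TDCIPP called 8 clusters with the pool as a random block and 0 to 3 when 1 pool was left out. Of 422 listed or named genes 291 were called, and 23 of these lost the call without some pool, all with changes under 1 log2 unit in size (at most 0.99). None of the 189 called genes of at least 2-fold lost the call in the alternatives run. Some alternatives could not show a loss: genes dropped by the minimum signal were skipped, and the mean over clusters gave no call. The direction of zp2.2 was reversed with the mean of all its clusters (-0.0764). The cause of these shifts was not tested.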

Other observations

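Families of genes that share the start of their symbol gave further patterns, chosen after their values were seen among 93 such families of at least 20 genes. Cytosolic ribosomal protein genes were mostly higher at 6 hpf, with 35 of 37 rpl genes higher and 1 lower (median log2 difference 0.74) and 26 of 29 rps genes higher and none lower (0.84). Mitochondrial ribosomal protein genes were mostly lower, with 32 of 43 mrpl genes lower and 3 higher (-0.71) and 19 of 24 mrps genes lower and 2 higher (-0.56). Lower calls also prevailed among fbxo genes, of F-box proteins (23 of 36, median -0.58), vps genes, of vesicle sorting (21 of 32, -0.62), and cox genes, mostly of respiratory complex IV (13 of 27, -0.32). Of 24 sox genes, 10 were higher and 4 lower. The shares over all genes were 15.2% higher and 31.8% lower.

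Zinc finger genes named znf, 128 in all, were divided, with 46 higher, 45 lower and a median of -0.01. Of all genes, 15.2% were higher and 31.8% lower. At least 2-fold, 30 znf genes rose (23.44%, against 5.61% of all genes) and 20 fell (15.62%, against 12.2%). Several of the risers are next to each other when the measured named genes are put in the current gene order (assembly GRCz12tu). Genes that were not measured may lie between such neighbours. A run of 8 neighbouring genes from crestin to LOC100537584, which includes znf1117, znf1032, znf995 and znf1137, rose by 1.26 to 5.12, and a run of 7 that includes znf1102 and znf973 rose by 1.01 to 6.18. The znf genes in these runs are close copies, so their probes may share targets. The keratins krt5, krt8 and krt18a.1 are also neighbours and rose by 5.10 to 6.40, as are the segmentation clock genes her1 and her7. Over all named genes, the next measured gene in order had also risen at least 2-fold for 117 of 1071 risers (10.9%, against 5.67% of all next genes). It had also fallen so far for 336 of 2314 fallers (14.5%, against 12.3%).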
